A study of Mus musculus with 12 samples.

Results

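Glypicans and syndecans are the main heparan sulfate proteoglycans of the cell surface. The 10 genes described here, the 6 glypicans Gpc1 to Gpc6 and the 4 syndecans Sdc1 to Sdc4, were taken by gene symbol from the platform annotation, and each was read by a single probe set that names no other gene. They are 10 of the 19938 genes measured. The 12 arrays of the study were run on cCFU-F, short for cardiac colony forming units of fibroblasts, which were sorted as SCA1+, PDGFRα+ and CD31- from hearts and grown as bulk cultures. CD31 is a protein of endothelial cells. The 4 groups held 3 arrays each, namely cells given the growth factor PDGF-AB at 50 ng/ml, cells given AG1296 at 10 uM, cells given AG1296 at 1 uM, and untreated cells. AG1296 is a small-molecule inhibitor of the PDGF receptor kinases, and PDGF-AB is a ligand of the same receptors. All groups came from male C57BL/6 mice aged 12 weeks and carried no engineered allele that the labels name. How long cells were treated, and in what vehicle, is not given in the sources used here, and the agents and any vehicle cannot be told apart. The labels do not say that the arrays of a group came from separate mice or cultures, and the p-values therefore measure only the spread between these arrays.

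A glypican is anchored to the outer leaflet of the membrane by a lipid tail, whereas a syndecan crosses the membrane and has a short cytoplasmic tail that binds scaffold and cytoskeletal proteins. Both carry heparan sulfate, a sulfated sugar chain that binds growth factors, morphogens, chemokines and matrix proteins and presents them to their receptors. Glypicans are known for tuning Wnt, Hedgehog, FGF and BMP signalling in development, and syndecans for linking the matrix to adhesions and for acting as co-receptors in wound repair.

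The values are log2 expression levels, and differences between groups are log2 fold changes from 1 limma fit of all 12 arrays (SE from that fit, n = 3 arrays per group). A gene was called where its Benjamini-Hochberg adjusted p over all 19938 genes was under 0.05. Arrays of 1 group correlated across genes at r of 0.992 to 0.996, and array medians lay between 4.38 and 4.48.

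Of 10 fibroblast markers, 9 lay above every array median in all 12 arrays, Pdgfra, the receptor used in the sort, among them. The mean level of the 10 was 9.076 to 9.182 with PDGF-AB, 9.268 to 9.294 with AG1296 10 uM, 9.444 to 9.486 with AG1296 1 uM and 9.059 to 9.104 in untreated cells. At 10 uM 3 of them rose (Dcn, Col1a1 and Col3a1) and Pdgfra fell, and at 1 uM 4 rose, the same 3 and Lum, and Pdgfra fell. Of all genes, 1.21% rose and 0.672% fell at 10 uM, and 1.88% rose and 1.33% fell at 1 uM. Lum, the 1 marker not above every array median, was at 4.49, 4.49 and 4.21 with AG1296 1 uM. In the other groups it lay at 2.18 to 2.77, below every array median, where background limits the fold change. Dcn, the matrix proteoglycan decorin, rose by 0.75 at 10 uM and 1.70 at 1 uM on the log2 scale, and both calls held under all 20 alternatives. That of Col1a1 was lost at 10 uM without its replicate 1 or 3 or untreated replicate 1 or 2 (adjusted p = 0.0537 to 0.0856) and at 1 uM without its replicate 1 or 3 or untreated replicate 2 (0.0588 to 0.0684), and that of Col3a1 at 1 uM without any 1 array except PDGF-AB replicates 1 and 3 (0.0576 to 0.164). Pdgfra was at 9.42, 9.54 and 9.70 with PDGF-AB, 9.00, 9.06 and 9.01 with AG1296 10 uM, 8.52, 8.46 and 8.55 with AG1296 1 uM, and 9.49, 9.41 and 9.35 in untreated cells. The call of Pdgfra at 10 uM (adjusted p = 0.0361) was lost in 13 of 20 alternatives, among them those without PDGF-AB replicate 2 or any 1 inhibitor or untreated array (0.0509 to 0.152), and that at 1 uM (3.84e-05) in 0.

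Of the endothelial markers, 6 of 7 lay below every array median in all 12 arrays, Pecam1, which encodes CD31, among them at 2.87 to 3.32. The other, Tek, was at 3.73, 3.75 and 3.78 with PDGF-AB, 3.77, 3.87 and 3.72 with AG1296 10 uM, 4.23, 4.45 and 4.06 with AG1296 1 uM, and 3.45, 3.57 and 3.53 in untreated cells, and rose by 0.73 at 1 uM (adjusted p = 0.000761). Of 7 leukocyte markers 6 lay below every array median, and the other, Lyz2, lay above it at 5.03 to 6.43. Of 7 cardiomyocyte markers 5 lay below every array median, with Tnnt2 at 6.69 to 7.32 and Actc1 at 5.21 to 5.71 above it. Against untreated cells 0 of either list were called, where 0.331% of all genes were called with PDGF-AB, 1.88% at 10 uM and 3.20% at 1 uM. Set against each inhibitor dose, PDGF-AB had 1 leukocyte marker lower and 1 cardiomyocyte marker higher. Of all genes, 3.42% were called against 10 uM and 5.21% against 1 uM. Of 7 pericyte and smooth muscle markers 2 lay above every array median, and the list's mean level was 4.359 to 4.433 with PDGF-AB, 4.302 to 4.405 with AG1296 10 uM, 4.012 to 4.164 with AG1296 1 uM and 4.231 to 4.246 in untreated cells. Its member Mcam was at 7.11, 7.14 and 6.93 with PDGF-AB, 6.69, 6.80 and 6.82 with AG1296 10 uM, 6.08, 5.88 and 5.87 with AG1296 1 uM, and 7.38, 7.35 and 7.35 in untreated cells. It fell by 0.59 at 10 uM (adjusted p = 0.00381) and by 1.42 at 1 uM (1.15e-06), and Myh11 rose by 0.54 at 10 uM (0.0398), lost without any 1 array at 1 uM, replicate 1 or 2 at 10 uM, replicates 2 or 3 of PDGF-AB, or replicate 1 or 3 of the untreated cells (0.0547 to 0.187). The mean level of 6 mesothelial and epicardial markers was 5.081 to 5.264 with PDGF-AB, 4.898 to 5.035 with AG1296 10 uM, 4.926 to 5.039 with AG1296 1 uM and 5.282 to 5.337 in untreated cells, so the arrays of all 3 treated groups lay below the untreated arrays. Of these 6, Upk1b and Lrrn4 fell at both doses, by 1.13 and 0.84 on the log2 scale at 10 uM and by 0.82 and 0.72 at 1 uM, and at 1 uM Krt19 fell by 0.72 while Upk3b rose by 0.55. Of all genes, 0.672% fell at 10 uM, and 1.33% fell and 1.88% rose at 1 uM. At 1 uM the call of Lrrn4 was lost without AG1296 1 uM replicate 2 (adjusted p = 0.0572) or untreated replicate 3 (0.0539), and that of Krt19 without AG1296 1 uM replicate 2 or 3 or untreated replicate 1 or 2 (0.0631 to 0.0692). The other 2, Msln and Wt1, were called at neither dose, and the part of these marker differences in the values below was not tested. In bulk RNA a smaller number of cells of a type and less RNA per cell cannot be told apart.

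Of the 10 genes, 7 were expressed above every array median in all 12 arrays, the glypicans Gpc1, Gpc4 and Gpc6 and all 4 syndecans. Gpc2, Gpc3 and Gpc5 lay below every array median in all 12 arrays, where background limits any difference. An F test across the groups called 6 of the 10 genes, Gpc4, Gpc6 and the 4 syndecans, where 5.00% of all genes were called. The F test calls of Gpc6, Sdc1, Sdc3 and Sdc4 were lost when certain single arrays were left out, and the count ranged from 2 to 6 over such fits, with 2 left without AG1296 10 uM replicate 2 (Gpc4 and Sdc2) and 3 without AG1296 10 uM replicate 3. Gpc4 had the widest range of the 10 over the 12 arrays, 1.67 log2 units, followed by Sdc2 with 1.14, and the other 8 spanned 0.81 or less. The comparisons against untreated cells share the same 3 untreated arrays.

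**Figure D1:**
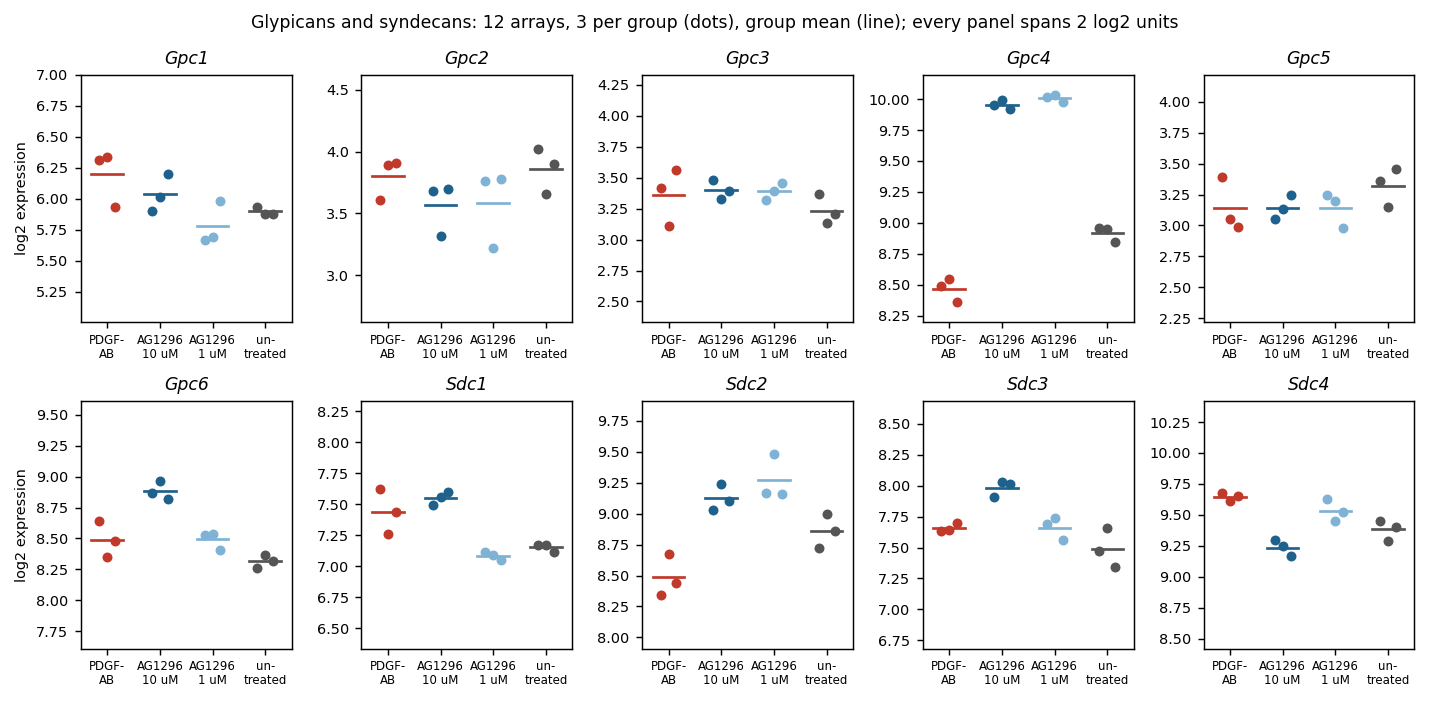
Log2 expression (vertical axis) of the 6 glypicans and 4 syndecans in each array, with PDGF-AB, AG1296 10 uM, AG1296 1 uM and untreated cells side by side; dots are arrays, 3 a group, lines are group means, and every panel spans 2 log2 units. In the Gpc4 panel the 6 inhibitor arrays lie between 9.92 and 10.03, above the untreated arrays at 8.85 to 8.96, and the PDGF-AB arrays lie lowest at 8.36 to 8.55.

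Gpc4 rose with AG1296 at both doses and was lowest with PDGF-AB. It encodes a glypican known as a co-receptor in FGF, Wnt and BMP signalling. Its level was 8.49, 8.55 and 8.36 with PDGF-AB, 9.95, 9.99 and 9.92 with AG1296 10 uM, 10.02, 10.03 and 9.98 with AG1296 1 uM, and 8.96, 8.95 and 8.85 in untreated cells. The PDGF-AB arrays lay below all untreated arrays, these lay below all inhibitor arrays, and the inhibitor doses overlapped. Against untreated cells Gpc4 rose 2.05-fold at 10 uM, a log2 fold change of 1.04 ± 0.08 (SE; limma adjusted p = 2.01e-05), and 2.13-fold at 1 uM, a log2 fold change of 1.09 ± 0.08 (adjusted p = 3.09e-06). Both calls held under all 20 alternative settings tried. Between the doses, 10 uM minus 1 uM gave -0.06 on the log2 scale with a 95% interval of -0.23 to 0.12 (adjusted p = 0.887). With PDGF-AB it fell by 0.45 ± 0.08 against untreated cells (SE; adjusted p = 0.0348), the only 1 of the 10 genes called in that comparison. That call was lost when any 1 of the arrays but AG1296 10 uM replicate 3 was left out (adjusted p of 0.0531 to 0.163), with each array centred on its median (0.055), with all probe sets tested (0.0512) and when the fit held the 6 arrays compared and no others (0.254). PDGF-AB and inhibitor differed by -1.49 ± 0.08 against 10 uM (adjusted p = 1.84e-07) and by -1.54 ± 0.08 against 1 uM (adjusted p = 6.97e-08).

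Gpc6 rose at the higher inhibitor dose. It encodes a glypican whose loss causes a skeletal dysplasia in humans. Its level was 8.64, 8.35 and 8.48 with PDGF-AB, 8.87, 8.96 and 8.82 with AG1296 10 uM, 8.53, 8.54 and 8.41 with AG1296 1 uM, and 8.26, 8.37 and 8.32 in untreated cells. The 3 arrays at 10 uM lay above all 9 others, and the PDGF-AB arrays overlapped the untreated and the 1 uM arrays. Against untreated cells it rose by 0.56 ± 0.09 at 10 uM, 1.48-fold (SE; adjusted p = 0.00512), and the difference at 1 uM was 0.17 ± 0.09 (adjusted p = 0.461). The doses differed by 0.39 ± 0.09, 10 uM minus 1 uM (95% interval 0.19 to 0.59), with an adjusted p of 0.123 and an unadjusted p of 0.000928, so the dose difference did not pass. It passed with dim genes filtered out (0.0311) and with an intensity trend (0.00688). PDGF-AB against 10 uM gave -0.39 ± 0.09 (adjusted p = 0.0319). That call did not pass once AG1296 1 uM replicate 1 (0.0505), any 1 of the AG1296 10 uM arrays (0.0526 to 0.133), or PDGF-AB replicate 2 or 3 (0.125 and 0.0867) was left out, and without AG1296 10 uM replicate 2 the F test gave 0.0551.

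Gpc1, a co-receptor for FGF2, was measured above the array medians but was called in no comparison. It was at 6.31, 6.34 and 5.93 with PDGF-AB, 5.90, 6.01 and 6.20 with AG1296 10 uM, 5.67, 5.69 and 5.98 with AG1296 1 uM, and 5.93, 5.88 and 5.88 in untreated cells. PDGF-AB against 1 uM gave 0.42 ± 0.12 (adjusted p = 0.0801), and 0.0439 without AG1296 1 uM replicate 3 and 0.0197 without PDGF-AB replicate 3, the array of its group nearest to the inhibitor values. It also passed with dim genes filtered out (0.0294) and with an intensity trend (0.0308). Gpc2, known from the developing nervous system, lay between 3.22 and 4.02 over the 12 arrays, Gpc3, mutated in a human overgrowth syndrome, between 3.11 and 3.56, and Gpc5 between 2.98 and 3.46. None of these 3 was called, with F test adjusted p of 0.573, 0.75 and 0.72.

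Sdc2 was lower with PDGF-AB than with either inhibitor dose. It encodes fibroglycan, a syndecan of mesenchymal cells. Its level was 8.34, 8.67 and 8.44 with PDGF-AB, 9.03, 9.24 and 9.10 with AG1296 10 uM, 9.17, 9.48 and 9.16 with AG1296 1 uM, and 8.72, 9.00 and 8.86 in untreated cells. The PDGF-AB arrays lay below all 9 others, and both inhibitor groups lay above the untreated arrays. PDGF-AB gave -0.64 ± 0.12 against 10 uM (SE; adjusted p = 0.00682) and -0.79 ± 0.12 against 1 uM (adjusted p = 0.000997), and both calls held under all 20 alternatives. Against untreated cells no treatment passed in the main fit. The differences were -0.37 ± 0.12 with PDGF-AB (adjusted p = 0.347), 0.27 ± 0.12 at 10 uM (0.406) and 0.41 ± 0.12 at 1 uM (0.0896). The last passed in 3 of 20 alternatives, with a block for the replicate number (0.0117), dim genes filtered out (0.0303) and an intensity trend (0.00912). Replicate 2 was the highest array of Sdc2 in each of the 4 groups.

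Sdc4 was higher with PDGF-AB than with AG1296 10 uM. It encodes the syndecan of focal adhesions, which binds protein kinase C alpha. Its level was 9.68, 9.61 and 9.65 with PDGF-AB, 9.30, 9.25 and 9.17 with AG1296 10 uM, 9.63, 9.45 and 9.52 with AG1296 1 uM, and 9.45, 9.29 and 9.40 in untreated cells. The PDGF-AB arrays lay above all 10 uM and all untreated arrays but overlapped those at 1 uM. PDGF-AB minus 10 uM was 0.41 ± 0.08 (SE; adjusted p = 0.0136), and 0.0594 without AG1296 10 uM replicate 3. Against untreated cells the differences of 0.26 ± 0.08 with PDGF-AB (adjusted p = 0.347), -0.15 ± 0.08 at 10 uM (0.572) and 0.15 ± 0.08 at 1 uM (0.502) did not pass. The first of these passed with an intensity trend (0.0493). The F test call was lost without any 1 of the arrays except AG1296 1 uM replicate 2 and untreated replicate 1 (0.0565 to 0.109).

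Sdc1 and Sdc3 were higher with AG1296 10 uM than in untreated cells. Sdc1, the syndecan of epithelia and plasma cells, was at 7.62, 7.26 and 7.44 with PDGF-AB, 7.49, 7.56 and 7.60 with AG1296 10 uM, 7.11, 7.09 and 7.05 with AG1296 1 uM, and 7.17, 7.17 and 7.11 in untreated cells. The 6 arrays with PDGF-AB or 10 uM all lay above the 6 arrays at 1 uM or untreated. It rose by 0.40 ± 0.09 at 10 uM against untreated cells (SE; adjusted p = 0.0495), and PDGF-AB minus 1 uM was 0.35 ± 0.09 (adjusted p = 0.0448). Each of these calls was lost in 15 of 20 alternatives. The call against untreated cells was lost without any 1 of the arrays except PDGF-AB replicates 1 and 2 (0.0704 to 0.174), and the call against 1 uM without any 1 except PDGF-AB replicate 2 (0.055 to 0.154). The doses differed by 0.47 ± 0.09, 10 uM minus 1 uM (95% interval 0.26 to 0.67, adjusted p = 0.0574), which passed without PDGF-AB replicate 1 (0.029) or 2 (0.0415). This difference also passed with quantile normalization (0.0459), dim genes filtered out (0.0116) and an intensity trend (0.00429). The F test gave 0.017, and 0.0502 to 0.051 without AG1296 1 uM replicate 3 or AG1296 10 uM replicate 2 or 3.

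Sdc3, the syndecan first known from neural tissue, was at 7.63, 7.64 and 7.70 with PDGF-AB, 7.91, 8.03 and 8.01 with AG1296 10 uM, 7.69, 7.74 and 7.56 with AG1296 1 uM, and 7.47, 7.66 and 7.34 in untreated cells. The arrays at 10 uM lay above all 9 others, and those of the other 3 groups overlapped. It rose by 0.49 ± 0.10 at 10 uM, 1.41-fold (SE; adjusted p = 0.0161), and the differences with PDGF-AB (0.16 ± 0.10; 0.665) and at 1 uM (0.17 ± 0.10; 0.502) did not pass. The call ended when AG1296 10 uM replicate 2 (0.0736) or 3 (0.0579), or untreated replicate 1 (0.0659) or 3 (0.0863), was left out, and the F test call when AG1296 1 uM replicate 1, any 1 array at 10 uM, replicate 2 or 3 of PDGF-AB, or replicate 1 or 3 of the untreated cells was left out (0.0518 to 0.132). The dose difference was 0.32 ± 0.10 (adjusted p = 0.258) and PDGF-AB minus 10 uM was -0.33 ± 0.10 (adjusted p = 0.0962). The latter passed with dim genes filtered out (0.0272) and with an intensity trend (0.0172).

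**Figure D2:**
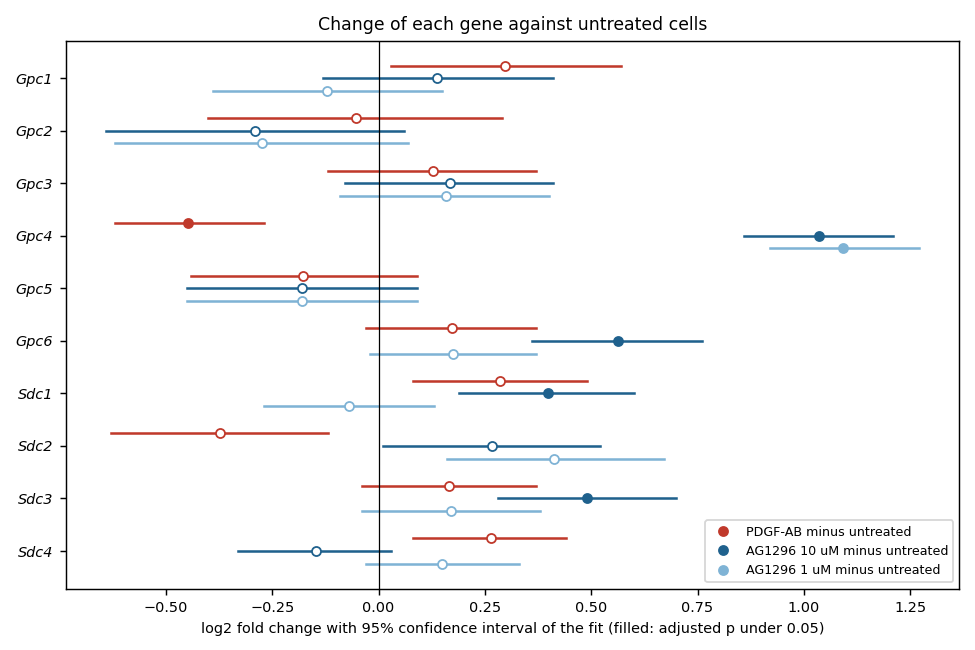
Log2 fold change against untreated cells (horizontal axis) of each glypican and syndecan for PDGF-AB, AG1296 10 uM and AG1296 1 uM, with 95% confidence intervals of the fit; filled points have an adjusted p under 0.05. Gpc4 stands at 1.04 and 1.09 with the inhibitor and at -0.45 with PDGF-AB, and the other filled points are Gpc6, Sdc1 and Sdc3 at 10 uM, at 0.56, 0.40 and 0.49.

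Counted over the family, 1 of the 10 genes was called with PDGF-AB against untreated cells, Gpc4, which was lower. Of all genes, 0.331% were called (0.120% higher and 0.211% lower). At AG1296 10 uM 4 of 10 were higher, Gpc4, Gpc6, Sdc1 and Sdc3, and 0 lower. There 1.88% of all genes were called (1.21% higher and 0.672% lower). At AG1296 1 uM 1 of 10 was called, Gpc4, which was higher, where 3.20% were called (1.88% higher and 1.33% lower). Of these calls, Gpc4 with PDGF-AB was lost in 14 of 20 alternatives, Sdc1 at 10 uM in 15, Sdc3 at 10 uM in 5 and the others in 0. The 10 genes had a median log2 fold change of 0.15 with PDGF-AB, 0.22 at 10 uM and 0.15 at 1 uM, against medians over all genes of 0.01, 0.01 and -0.01. Between the inhibitor doses limma called 0 of the 10 genes, where 0.376% of all genes were called (0.196% higher and 0.181% lower at 10 uM). The unadjusted p was under 0.05 for 4 of the 10, Gpc6, Sdc1, Sdc3 and Sdc4. In each other comparison it was under 0.05 for 2 to 5 of the 10. That threshold is looser, and the share of all genes under it was not counted, so no result is read from these counts.

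PDGF-AB against AG1296 10 uM called 4 of 10, with Gpc4, Gpc6 and Sdc2 lower and Sdc4 higher under PDGF-AB, where 3.42% of all genes were called. PDGF-AB against AG1296 1 uM called 3 of 10, with Gpc4 and Sdc2 lower and Sdc1 higher, where 5.21% were called. The median over the 10 genes was -0.08 against 10 uM and 0.00 against 1 uM. Gpc4 and Sdc2 were lower with PDGF-AB than with either dose, with calls that held under every alternative tried.

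Gpc4 and Gpc3 are neighbours on chromosome X with 0 protein-coding genes between them, and Gpc5 and Gpc6 are neighbours in the same way on chromosome 14, in the gene order of RefSeq for GRCm38.p6. The neighbourhoods were looked up after the values of the glypicans had been seen. In each pair 1 gene was well expressed and called and the other lay below every array median, with Gpc3 at 3.56 at most and Gpc5 at 3.46. Among the 8 coding genes around the first pair, Hs6st2, Usp26, 1700080O16Rik, Gpc4, Gpc3, Ccdc160, Phf6 and Hprt, the F test called Gpc4 and Hs6st2 (adjusted p = 0.000908). Hs6st2 encodes a heparan sulfate 6-O-sulfotransferase, an enzyme that acts on the chains glypicans carry. It was at 6.96, 7.09 and 7.03 with PDGF-AB, 7.62, 7.73 and 7.74 with AG1296 10 uM, 7.31, 7.33 and 7.21 with AG1296 1 uM, and 7.38, 7.35 and 7.36 in untreated cells. The PDGF-AB arrays were lowest and the 10 uM arrays highest, and PDGF-AB minus 10 uM was -0.67 ± 0.08 (SE; adjusted p = 0.000195), a call that held under all 20 alternatives. Its 10 uM minus 1 uM difference of 0.41 ± 0.08 (adjusted p = 0.0478) was lost when any 1 array other than PDGF-AB replicate 1 was left out (0.0631 to 0.188). At 1 uM, where Gpc4 rose, Hs6st2 differed from untreated cells by -0.08 ± 0.08 (adjusted p = 0.786). Among the 8 genes around the second pair, Slitrk1, Slitrk6, Slitrk5, Gpc5, Gpc6, Dct, Tgds and Gpr180, the F test called Gpc6 alone.

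**Figure D3:**
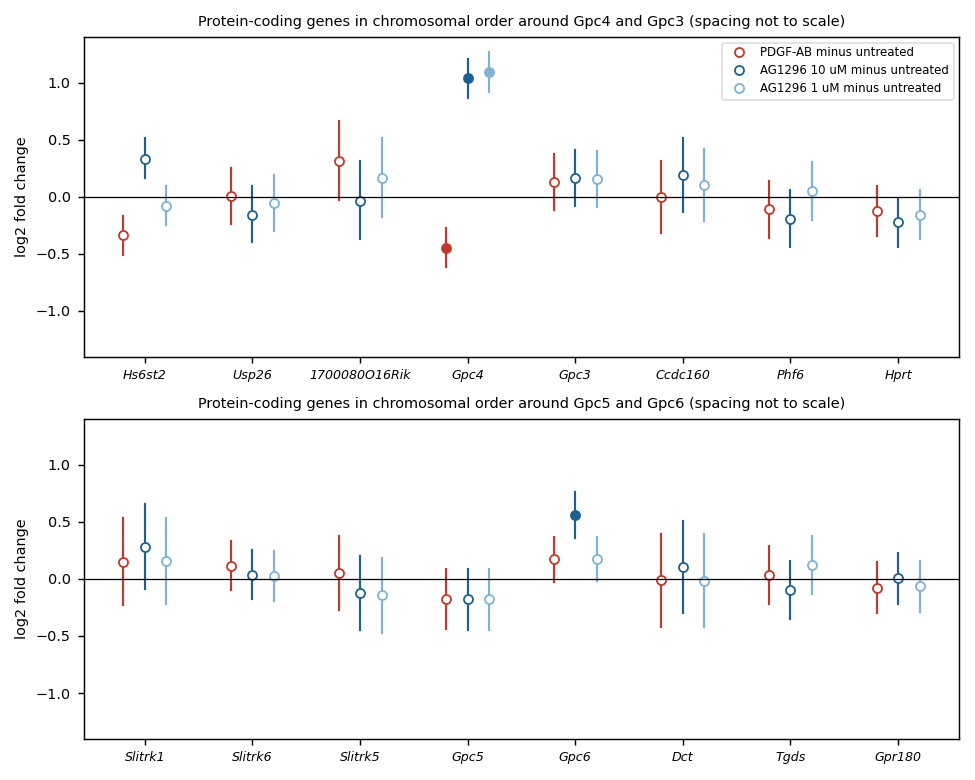
Log2 fold change against untreated cells (vertical axis, with 95% intervals of the fit) of the protein-coding genes next to Gpc4 and Gpc3 (top) and Gpc5 and Gpc6 (bottom), in chromosomal order and not to scale, for PDGF-AB, AG1296 10 uM and AG1296 1 uM; filled points have an adjusted p under 0.05. The filled points are Gpc4 in all 3 comparisons and Gpc6 at 10 uM, and the adjoining Gpc3 and Gpc5 have none.

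The promoters of this adjoining X-linked pair and of Sdc4, the syndecan that was higher rather than lower with PDGF-AB than with AG1296 10 uM, are shown to set their sequence beside these values. They are credited to RefSeq and the GRCm38.p6 build, run from 250 bases before the start of transcription to 50 after it, and are given 5′ to 3′ on the coding strand. Gpc4 lies at chrX:52164874-52165173, Gpc3 at chrX:52613925-52614224 and Sdc4 at chr2:164443139-164443438, each on the minus strand. Capitals mark matches to the GC box GGGCGG, to the TATA box motif TATAA and to the CCAAT box, each searched on either strand.
Gpc4: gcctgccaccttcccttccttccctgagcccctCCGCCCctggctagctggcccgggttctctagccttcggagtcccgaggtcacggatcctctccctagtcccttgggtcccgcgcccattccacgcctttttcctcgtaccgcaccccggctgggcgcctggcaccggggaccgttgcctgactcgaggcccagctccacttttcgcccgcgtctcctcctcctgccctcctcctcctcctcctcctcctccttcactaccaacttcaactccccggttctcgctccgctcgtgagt
Gpc3: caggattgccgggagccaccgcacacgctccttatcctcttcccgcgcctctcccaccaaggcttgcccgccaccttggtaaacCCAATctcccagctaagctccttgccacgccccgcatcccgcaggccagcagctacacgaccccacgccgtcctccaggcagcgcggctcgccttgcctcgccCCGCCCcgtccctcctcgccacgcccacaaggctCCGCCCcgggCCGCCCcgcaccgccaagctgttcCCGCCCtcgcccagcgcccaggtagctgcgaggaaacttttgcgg
Sdc4: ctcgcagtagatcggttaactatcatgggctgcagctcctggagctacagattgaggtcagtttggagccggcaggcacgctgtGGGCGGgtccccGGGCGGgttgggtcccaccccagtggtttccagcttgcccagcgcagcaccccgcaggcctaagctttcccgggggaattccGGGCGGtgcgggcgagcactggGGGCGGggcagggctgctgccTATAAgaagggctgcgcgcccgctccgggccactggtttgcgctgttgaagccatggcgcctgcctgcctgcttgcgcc

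The promoter table held 7 of the 10 genes, Gpc2, Gpc3, Gpc4, Gpc5, Sdc1, Sdc3 and Sdc4, and not Gpc1, Gpc6 and Sdc2. The GC box, which binds Sp-family factors, was found in 7 of 7, against 35.7% of the 32851 promoters in the table. These promoters were 54.7% to 77.7% G and C, against a median of 52.7% over the table. Gpc4 held 1 GC box, at -217, and Gpc3 held 4, at -63, -29, -19 and 6, with a CCAAT at -166. Sdc4 held 4 GC boxes, at -166, -154, -72 and -50, and TATAA at -29. In none of the 3 printed promoters did a match overlap another. TATAA was found in 3 of 7 (Gpc5, Sdc1 and Sdc4), against 24.9% of the table, and CCAAT in 3 of 7 (Gpc2, Gpc3 and Sdc1), against 37.4%. The AP-1 motif TGANTCA and the E-box CACGTG, both searched on either strand, were in 0 of 7, against 7.81% and 7.15% of the table. A match is a description of the letters and not of binding.

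Genes whose values over the 12 arrays were nearest to each called proteoglycan were ranked by the root mean square difference after each gene was centred on its own mean. Nearest to Gpc4, whose own spread about its mean was 0.666, were Pcsk6, a proprotein convertase, at a distance of 0.155, the adaptor Grb14 at 0.164 and the palmitoyltransferase Zdhhc2 at 0.165. Pcsk6 was at 7.01, 7.04 and 7.08 with PDGF-AB, 8.27, 8.18 and 8.21 with AG1296 10 uM, 8.64, 8.47 and 8.46 with AG1296 1 uM, and 7.60, 7.38 and 7.51 in untreated cells, in the same order of groups as Gpc4. Nearest to Gpc6 (own spread 0.220) were the heparan sulfate endosulfatase Sulf2 at 0.070, Fam13c at 0.092 and Cdk15 at 0.094. Sulf2 was at 7.57, 7.35 and 7.56 with PDGF-AB, 7.73, 8.01 and 7.87 with AG1296 10 uM, 7.62, 7.64 and 7.50 with AG1296 1 uM, and 7.32, 7.35 and 7.30 in untreated cells, and like Gpc6 was highest at 10 uM.

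For the syndecans, Sdc1 (0.209) was nearest to the procollagen C-proteinase Bmp1 at 0.071, the peroxidasin Pxdn at 0.085 and Fcrlb at 0.099. Sdc2 (0.323) was nearest to the calcium sensor Stim1 at 0.098 and to Wwc2 and the laminin chain Lama2, both at 0.112. Sdc3 (0.196) was nearest to Mmp14, a membrane-bound protease known to shed syndecans, at 0.073, to Nol3 at 0.084 and to Itpr2 at 0.086. Mmp14 was at 8.79, 8.80 and 8.88 with PDGF-AB, 9.08, 9.16 and 9.14 with AG1296 10 uM, 8.89, 8.89 and 8.78 with AG1296 1 uM, and 8.81, 8.74 and 8.65 in untreated cells, with the 10 uM arrays above all others as for Sdc3. Sdc4 (0.165) was nearest to Lsm4 at 0.075, to Hbegf, a growth factor that binds heparan sulfate, at 0.076 and to Hoxa2 at 0.082. Hoxa2, at 2.31 to 2.79 over the 12 arrays, and Cdk15, at 3.04 to 3.73, lay below every array median, where background limits any difference. Fcrlb was dim as well, at 3.83 to 4.41. Ranked this way over 12 shared arrays, the distances are descriptions with no test.

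Genes for building heparan sulfate were counted against untreated cells in 4 lists. Of the 7 genes of the linkage region, such as the xylosyltransferase Xylt1 and the glucuronyltransferase B3gat3, 0 were called with PDGF-AB, at 10 uM or at 1 uM, and of the 5 EXT-family polymerases, Ext1 and Ext2 among them, also 0. B3gat3 had differences of 0.12, -0.15 and -0.31 in that order of treatments, and Ext1 of -0.22, 0.15 and 0.19. Of 15 sulfation and epimerisation enzymes measured, 1 was called, Hs2st1, the 2-O-sulfotransferase, which fell by 0.42 ± 0.09 at 1 uM (SE; adjusted p = 0.0177). Leaving out AG1296 1 uM replicate 2 (0.0579) or 3 (0.0829), or untreated replicate 1 (0.0806) or 3 (0.0642), ended that call. Of 10 genes of precursor supply, Ugdh, which makes UDP-glucuronic acid, fell by 0.42 ± 0.07 at 10 uM (adjusted p = 0.00789), and Papss2, which makes the sulfate donor PAPS, rose by 0.45 ± 0.08 at 1 uM (adjusted p = 0.00855; 0.0588 without AG1296 1 uM replicate 1). The median log2 fold changes of these 4 lists lay between -0.14 and 0.10, and of all genes 0.331% were called with PDGF-AB, 1.88% at 10 uM and 3.20% at 1 uM.

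Of 13 genes for remodelling and core cleavage, which act on finished proteoglycans, 0 were called with PDGF-AB, 4 rose and 0 fell at 10 uM, and 3 rose and 0 fell at 1 uM. Of all genes, 1.21% rose at 10 uM and 1.88% at 1 uM. The list medians were 0.02, 0.21 and 0.12, against 0.01, 0.01 and -0.01 over all genes. The 9 and 10 others did not pass at 10 uM and 1 uM. Timp3, an inhibitor of metalloproteinases including syndecan sheddases, was at 9.74, 9.61 and 9.68 with PDGF-AB, 10.57, 10.63 and 10.45 with AG1296 10 uM, 10.86, 10.76 and 10.71 with AG1296 1 uM, and 9.73, 9.79 and 9.78 in untreated cells. All 6 inhibitor arrays lay above the 6 others, and Timp3 rose by 0.79 ± 0.08 at 10 uM (SE; adjusted p = 0.000177) and 1.01 ± 0.08 at 1 uM (adjusted p = 8.54e-06). The secreted protease Adamts1 rose by 0.45 ± 0.09 at 10 uM (adjusted p = 0.02) and 0.65 ± 0.09 at 1 uM (adjusted p = 0.000871), and the first call ended when any 1 array at 10 uM, or untreated replicate 2 or 3, was left out (0.0506 to 0.106).

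Sulf2, which removes 6-O-sulfates, rose by 0.54 ± 0.10 at 10 uM (SE; adjusted p = 0.00822). Mmp14 rose by 0.39 ± 0.08 at 10 uM (adjusted p = 0.0232), which was lost with any 1 array at 10 uM, or with untreated replicate 2 or 3, left out (0.0635 to 0.121). Mmp2, a gelatinase, rose by 0.37 ± 0.09 at 1 uM (adjusted p = 0.0386), a call lost in 12 of 20 alternatives, among them those without AG1296 1 uM replicate 1 or 3, any 1 of the AG1296 10 uM arrays, PDGF-AB replicate 2 or any 1 of the untreated arrays (0.0506 to 0.147). This list thus holds both proteases and their inhibitor among the genes that rose.

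**Figure D4:**
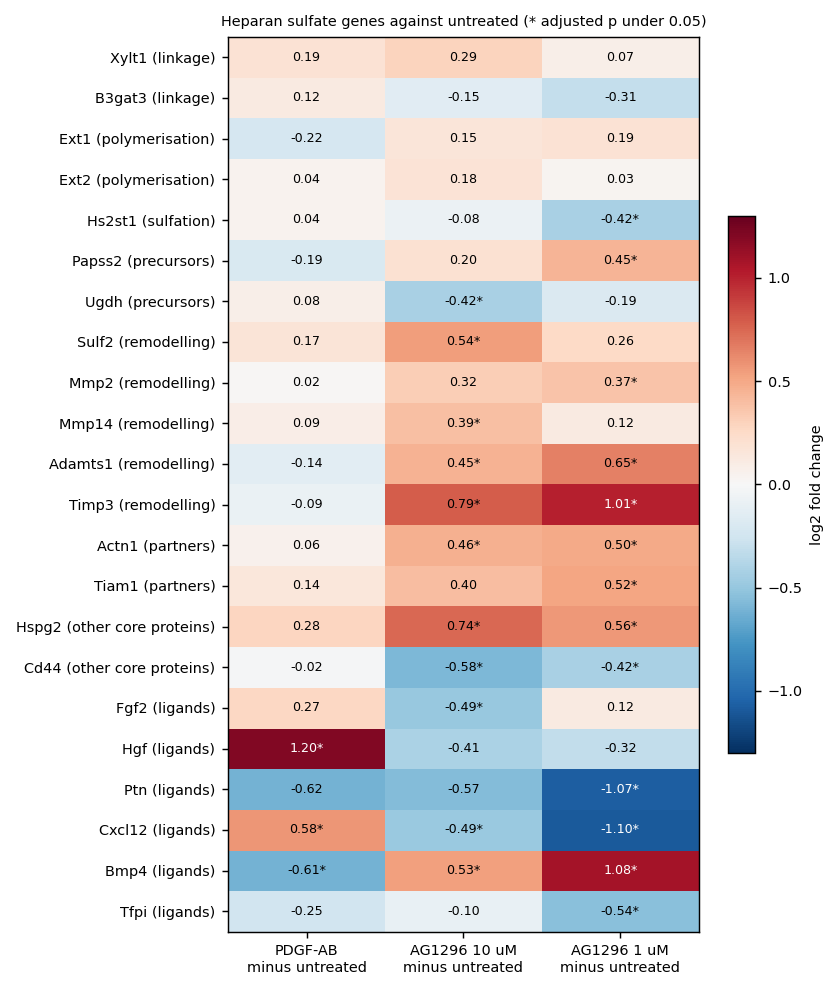
Log2 fold change against untreated cells (colour and printed value) for the heparan sulfate genes named by the rule, 1 row a gene with its list in brackets and 1 column for each of PDGF-AB, AG1296 10 uM and AG1296 1 uM; a star marks an adjusted p under 0.05. Timp3, Hspg2, Adamts1, Actn1 and Bmp4 rose at both inhibitor doses, and Cd44 and Cxcl12 fell at both.

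Of 11 partners of the syndecan tail, 0 were called with PDGF-AB, 1 rose at 10 uM and 2 rose at 1 uM, where 1.21% and 1.88% of all genes rose. Actn1, the actin cross-linker alpha-actinin that binds Sdc4, rose by 0.46 ± 0.08 at 10 uM (SE; adjusted p = 0.00611) and 0.50 ± 0.08 at 1 uM (adjusted p = 0.00219). Tiam1, an exchange factor for Rac, rose by 0.52 ± 0.12 at 1 uM (adjusted p = 0.0257), a call that ended when any 1 array of those groups was left out (0.0609 to 0.0974). Of 10 other proteins that carry heparan sulfate, or carry it in part, 0 were called with PDGF-AB, and 1 rose and 1 fell at each inhibitor dose, where 0.672% of all genes fell at 10 uM and 1.33% at 1 uM. Hspg2, which encodes the basement membrane proteoglycan perlecan, was at 8.18, 7.92 and 8.26 with PDGF-AB, 8.47, 8.53 and 8.76 with AG1296 10 uM, 8.35, 8.38 and 8.47 with AG1296 1 uM, and 7.84, 7.82 and 7.86 in untreated cells. It rose by 0.74 ± 0.11 at 10 uM (adjusted p = 0.00198) and 0.56 ± 0.11 at 1 uM (adjusted p = 0.00876). Cd44, the hyaluronan receptor, fell by 0.58 ± 0.09 at 10 uM (adjusted p = 0.00358) and 0.42 ± 0.09 at 1 uM (adjusted p = 0.0181), the second of which ended when any 1 array at 1 uM or any 1 untreated array was left out (0.0537 to 0.082).

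Among 27 secreted factors that bind heparan sulfate, 3 rose and 1 fell with PDGF-AB, 1 rose and 3 fell at 10 uM, and 1 rose and 4 fell at 1 uM, and the others did not pass. Of all genes, 0.120% rose and 0.211% fell with PDGF-AB, 1.21% rose and 0.672% fell at 10 uM, and 1.88% rose and 1.33% fell at 1 uM. List medians were 0.05, -0.08 and -0.01. Cxcl12, a chemokine, was at 7.14, 7.28 and 7.16 with PDGF-AB, 6.18, 6.17 and 6.04 with AG1296 10 uM, 5.43, 5.63 and 5.50 with AG1296 1 uM, and 6.73, 6.62 and 6.50 in untreated cells, so the 4 groups did not overlap. Bmp4, a morphogen of the BMP family, ran the other way, at 5.15, 5.15 and 5.48 with PDGF-AB, 6.49, 6.49 and 6.25 with AG1296 10 uM, 7.02, 7.10 and 6.76 with AG1296 1 uM, and 5.89, 5.94 and 5.80 in untreated cells. At 1 uM Cxcl12 fell by 1.10 ± 0.09 (SE; adjusted p = 9.5e-06) and Bmp4 rose by 1.08 ± 0.12 (adjusted p = 0.000118), and both calls held under all 20 alternatives. With PDGF-AB Cxcl12 rose by 0.58 ± 0.09 (adjusted p = 0.0158), lost when replicate 2 or 3 of either group was left out (0.0522 to 0.0962), and at 10 uM it fell by 0.49 ± 0.09 (adjusted p = 0.0136), lost when its replicate 3, or untreated replicate 1 or 2, was left out (0.0538 to 0.0728). Bmp4 fell by 0.61 ± 0.12 with PDGF-AB (adjusted p = 0.048) and rose by 0.53 ± 0.12 at 10 uM (adjusted p = 0.0344). These calls were lost in 13 and 9 of 20 alternatives, at adjusted p up to 0.207 and 0.145, the first without AG1296 1 uM replicate 1 or 2, AG1296 10 uM replicate 1 or 2, any untreated array or PDGF-AB replicate 1 or 2, and the second without AG1296 1 uM replicate 1, AG1296 10 uM replicate 1 or 2, or any untreated array.

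Hgf, a growth factor for epithelium and endothelium, rose by 1.20 ± 0.14 with PDGF-AB (SE; adjusted p = 0.00247), with 4.71, 4.79 and 4.33 against 3.67, 3.27 and 3.30 in untreated cells, where it lay below every array median and background limits the fold change. Fgf2 fell by 0.49 ± 0.10 at 10 uM (adjusted p = 0.0161), lost when its replicate 2 or 3, or untreated replicate 1 or 2, was left out (0.0562 to 0.0856). At 1 uM Ptn, a cytokine that binds syndecans, fell by 1.07 ± 0.15 (adjusted p = 0.00072) while lying below every array median in all 12 arrays, and Tfpi, an inhibitor of coagulation that binds glypicans, fell by 0.54 ± 0.10 (adjusted p = 0.00963; 0.0567 without AG1296 1 uM replicate 1). Lpl with PDGF-AB, Thbs1 at 10 uM and Fgf7 at 1 uM make up the rest of the counts and were named after their values were seen.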

How the data were processed

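The authors deposited 1 table of log2 expression values for 12 one-colour Affymetrix arrays, made with RMA (background subtraction, normalization across arrays and summary of the probes of a set) and used with limma, per the submitters' processing notes, with no versions given. Total RNA of integrity above the authors' limit was labelled with biotin, per the labels' protocols. The log base was inferred from the spread of the numbers. No further normalization was applied here.

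Of 28853 probe sets, 5443 had no symbol in the platform annotation and 1621 had several, and both kinds were left out. The other 21789 had 1 symbol, and 21698 of these matched a RefSeq gene by gene ID, which changed 0 symbols. Where a gene had more than 1 probe set (999 genes), its probe set of highest mean was kept, giving 19938 genes with no filter on dim ones. Each glypican and syndecan had 1 probe set.

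Differences were tested two-sided with limma 3.58.1 in R 4.3.3, in 1 fit of all 12 arrays with a mean per group and empirical Bayes moderation (prior degrees of freedom 5.35, residual 8), and adjusted by Benjamini-Hochberg over all genes at 0.05. Precision is limited by the number of arrays. The fit was tested on simulated data. Alternatives were a block for the replicate number, quantile normalization, median centring, a filter on dim genes, an intensity trend with robust moderation, all probe sets, the mean of a gene's probe sets, each array left out in turn, and the 6 arrays of a comparison alone.

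The genes and lists were chosen with earlier results of these data known. All 10 genes were described. Each pathway list named up to 6 genes called against untreated cells, by smallest p, or up to 2 where none was called, and each gene called in the F test the 3 nearest genes. Hs6st2 and the markers with values were named after their values were seen. Ndst1 lay on no single-symbol probe set. Promoters are from RefSeq.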

Additional observations from a re-analysis of the deposited data

How the results depend on the processing

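Of 19 called values of the 10 genes, 9 held under all alternatives tried, 10 were lost under at least 1, and 0 reversed. The count of the 10 genes called with PDGF-AB against untreated cells, 1, was 0 with median centring, with all probe sets and with the 6 arrays alone, 2 with an intensity trend, and 0 to 1 without 1 array. AG1296 10 uM against untreated, 4, gave 3 with a block for the replicate number, quantile normalization, median centring or all probe sets. It gave 2 with the 6 arrays alone and 2 to 4 without 1 array. AG1296 1 uM against untreated, 1, gave 2 with a block for the replicate number, dim genes filtered out or an intensity trend, and 1 to 1 without 1 array. AG1296 10 uM against 1 uM, 0, gave 1 with quantile normalization, 2 with dim genes filtered out, 3 with a trend and 0 to 1 without 1 array. PDGF-AB against 10 uM, 4, gave 5 with dim genes filtered out and with a trend, and 3 with median centring. It gave 2 with the 6 arrays alone and 2 to 4 without 1 array. PDGF-AB against 1 uM, 3, gave 4 with dim genes filtered out and with a trend. It gave 2 with the replicate block, median centring, all probe sets or the 6 arrays alone, and 2 to 3 without 1 array. The F test, 6, gave 5 with median centring and 2 to 6 without 1 array. The 6-array fits have fewer residual degrees of freedom; the cause of the other changes was not tested. A fit of 6 arrays has no F test over 4 groups.

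For the counts over all genes, settings other than a left-out array are named only where the count differed by more than 1.5-fold. Over all genes, calls with PDGF-AB against untreated cells were 66, but 133 with dim genes filtered out, 160 with a trend and 7 with the 6 arrays alone. In the same order AG1296 10 uM against untreated gave 375, but 660, 686 and 218, AG1296 1 uM against untreated gave 639, but 989 and 1010 under the first 2, AG1296 10 uM against 1 uM gave 75, but 175, 209 and 14, PDGF-AB against 10 uM gave 682, but 1032, 1077 and 391, PDGF-AB against 1 uM gave 1039, but 691 with the 6 arrays alone, and the F test gave 997, but 1518 and 1610 under the first 2. With 1 array left out, PDGF-AB against untreated gave 21 to 62 (30 to 40 without a PDGF-AB array and 21 to 23 without an untreated array), AG1296 10 uM against untreated 219 to 434 (219 to 245 without its replicate 1 or 2 or an untreated array), AG1296 1 uM against untreated 349 to 718 (349 to 405 without its replicate 1 or 2 or an untreated array), and 10 uM against 1 uM 16 to 82 (16 to 39 without an array of either dose, and 49 without untreated replicate 2). PDGF-AB against 10 uM gave 455 to 627, PDGF-AB against 1 uM 696 to 1012 and the F test 731 to 901, so the shares of all genes called vary likewise.

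The replicate numbers were not taken to pair the arrays, since the labels name nothing shared by a number and not every same-numbered pair correlated over 0.1. Deviations of same-numbered arrays correlated at -0.0148 to 0.341 over 18 pairs (median 0.117, over 0.1 in 9), against a median of -0.0447 over 36 other pairs (over 0.1 in 2), and 8 of 12 arrays correlated best with their own number. All 6 pairs of replicate 2 lay between 0.142 and 0.341, a hint from the data that those arrays deviate together. For replicate 3, the pairs among AG1296 1 uM, AG1296 10 uM and untreated cells lay between 0.144 and 0.191. Its pairs with PDGF-AB lay between -0.0148 and 0.073. With the replicate number as a block, the count for AG1296 1 uM against untreated was 2, Sdc2 being added (adjusted p = 0.0117), and Sdc1 was at 0.061 for 10 uM against untreated and 0.0518 for PDGF-AB against 1 uM.

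Gpc2, Gpc3 and Gpc5 lay below the array medians, where signal limits any call.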

Other observations

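Set against AG1296 1 uM rather than untreated cells, PDGF-AB cells differed in 1 of 7 linkage genes, 1 of 5 polymerases, 1 of 15 sulfation enzymes and 3 of 10 genes of precursor supply, where 5.21% of all genes were called. B3gat3, which completes the linker, was higher by 0.43 ± 0.10 (log2, SE; limma adjusted p = 0.0217), and Ext1, a chain polymerase, was lower by a log2 fold change of -0.41 ± 0.10 (adjusted p = 0.0319). B3gat3 was lost without AG1296 1 uM replicate 1 or 2 or PDGF-AB replicate 1 or 3 (0.0713 to 0.107), and Ext1 without replicate 1 or 3 of either group (0.102 to 0.144). Hs2st1 was higher by 0.46 ± 0.09 (adjusted p = 0.00606) and Papss2 lower, at -0.64 ± 0.08 (adjusted p = 0.000274), and both held under all 20 alternatives. Of the other 2 precursor genes, Ugdh was higher by 0.27 ± 0.07 (adjusted p = 0.0481), lost in 16 of 20 alternatives (up to 0.168), among them those without any 1 array, and Ugp2, named after its values were seen, gave -0.46 ± 0.10 (adjusted p = 0.0145), lost without AG1296 1 uM replicate 2 (0.0756) or PDGF-AB replicate 3 (0.0645). Papss2 was at 6.73, 6.75 and 6.75 with PDGF-AB, against 7.48, 7.43 and 7.25 with AG1296 1 uM. Against 10 uM, PDGF-AB gave 0.50 ± 0.07 for Ugdh (adjusted p = 0.00111), which held under all 20 alternatives.

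Of the 27 heparan sulfate-binding factors, 6 were higher and 4 lower with PDGF-AB than with AG1296 10 uM, and 5 were higher and 1 lower than with 1 uM, where 3.42% and 5.21% of all genes were called in either direction. Hgf was at 4.71, 4.79 and 4.33 with PDGF-AB, against 2.92, 2.89 and 3.20 at 10 uM and 3.05, 3.17 and 3.07 at 1 uM, and differed by 1.61 ± 0.14 (adjusted p = 1.26e-05) and 1.52 ± 0.14 (adjusted p = 1.08e-05). Both inhibitor groups lay below every array median, where background limits the fold change. Fgf2 was higher with PDGF-AB than at 10 uM, by 0.76 ± 0.10 (adjusted p = 0.000292), and differed by -0.61 ± 0.10 between the doses, 10 uM minus 1 uM (adjusted p = 0.0161), lost in 6 of 20 alternatives, among them those without AG1296 1 uM replicate 1 or 2 or any 1 array at 10 uM (up to 0.0903).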
